A study of Mus musculus with 8 samples.

Results

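The rows described here are Gdnf, Bdnf and Gm45346, 3 of the 54146 gene rows in a table of fragment counts from olaparib-resistant ovarian cancer cells of the mouse. They were chosen by name: Gdnf, which has no annotated gene opposite it, and Bdnf with Gm45346, the noncoding gene annotated on the strand opposite to Bdnf. Levels in EZM8266-treated and DMSO-treated libraries were known when they were chosen, so the differences between libraries with and without EZM8266 are given as descriptions with no test. A filter on low counts kept 6379 rows for testing, among them Gdnf and Bdnf but not Gm45346.

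The cells are ID8-OR, olaparib-resistant cells of the mouse ovarian cancer line ID8, and all groups share that background. Each of the 4 groups holds 2 libraries, made after 72 hours with olaparib plus EZM8266 (the combination), EZM8266 alone, olaparib alone or DMSO, the solvent. Olaparib inhibits PARP enzymes, which mark DNA breaks, and EZM8266 is given as an inhibitor of EHMT1 and EHMT2, which methylate lysine 9 of histone H3. For combination replicate 2 the label gives EZM8267, and it was placed by its title. No label says whether the replicates came from separate cultures, so the spread that the p-values measure may be technical. The RNA is from bulk cultures, where fewer cells of a kind and less RNA per cell cannot be told apart.

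GDNF is a secreted survival factor for dopaminergic and motor neurons and for the precursors of sperm. It binds the co-receptor GFRA1 and signals through the receptor tyrosine kinase RET, and it can also act through the adhesion molecule NCAM1. BDNF belongs to the neurotrophin family, is cut from a precursor by furin and related proteases, and signals through TRKB (Ntrk2) and the low-affinity receptor p75 (Ngfr). The Bdnf gene has several promoters, each of which joins its own first exon to a shared coding exon. EHMT2 is known as a co-repressor that can keep neuronal genes silent outside the nervous system.

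The strand of the counts sets what each row can measure. Counting took fragments with the first read on the gene's own strand, while the library kit is of the dUTP type, in which the first read lies on the opposite strand. A row therefore takes in fragments of RNA made from the strand opposite to its gene, plus a small leakage of the gene's own transcripts. The Bdnf row is thus set to read the strand of Gm45346, and the Gm45346 row the strand of Bdnf. Gm45346 covers 14.4% of the exonic bases of Bdnf, and the share of leaked Bdnf transcripts in the Bdnf row was not measured. Gdnf has no annotated gene opposite it, so what its row counts is not settled, and its values are not given as levels of Gdnf transcripts. Where in a row the counts lie was not measured.

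Gdnf (ENSMUSG00000022144.4) lies on the plus strand of chr15:7810846-7837575 in mm10, with 3 merged exons of 269, 177 and 3228 bases, 3674 in all. No gene of the annotation overlaps it on the minus strand. The nearest minus-strand gene, Wdr70, ends 35479 bases beyond the last exon of Gdnf, and its row held 2 to 9 counts per library. Bdnf (ENSMUSG00000048482.14) lies on the plus strand of chr2:109674700-109727007, with 9 merged exons and 6217 exonic bases. Gm45346 (ENSMUSG00000109604.1) is annotated as antisense on the minus strand of chr2:109670908-109676591, with 4 exons and 1273 bases. Its exons lie over the first and second merged exons of Bdnf for 896 bases, which is 70.4% of Gm45346 and 14.4% of Bdnf. The last exon of Bdnf, 3626 bases long, lies outside Gm45346.

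**Figure D1:**
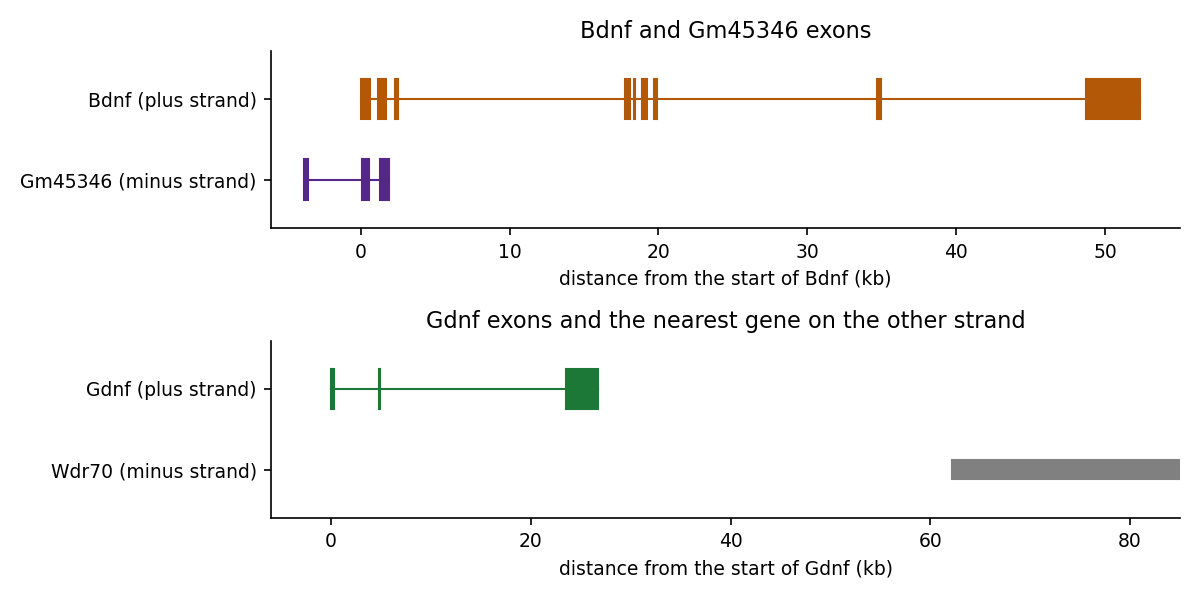
Exons of the described genes in mm10, drawn to scale against the distance in kb from the start of Bdnf (upper panel) or Gdnf (lower panel). Boxes are merged exons, lines are introns, and the grey bar is the part of Wdr70 within view; Gm45346 overlaps only the first exons of Bdnf, and Gdnf has no gene opposite it.

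The plus-strand start regions of Gdnf and Bdnf are shown as a description of the genes. The Bdnf row is set to read the other strand, and what the Gdnf row counts is not settled. Whether these regions bear on the counts was not tested. RefSeq windows on GRCm38.p6 run from 250 bases before to 50 bases after a start and were available for 2 of the 3 genes, with 2 windows for Gdnf, 7 for Bdnf. The first Gdnf window ends before the first counted exon, which starts at 7810846. The second lies between merged exons 1 and 2, so neither covers the start of a counted Gdnf exon. Capitals mark TGACG, the core of the cAMP response element TGACGTCA, and the GC box GGGCGG, searched on both strands; a match on the minus strand reads CGTCA or CCGCCC.
Gdnf, first window, chr15:7809798-7810097, plus strand: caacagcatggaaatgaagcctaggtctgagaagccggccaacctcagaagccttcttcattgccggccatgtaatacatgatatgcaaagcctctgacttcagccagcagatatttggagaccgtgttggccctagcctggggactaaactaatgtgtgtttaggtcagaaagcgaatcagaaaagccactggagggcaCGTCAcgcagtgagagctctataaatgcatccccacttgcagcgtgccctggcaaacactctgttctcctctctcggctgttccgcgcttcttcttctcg
Gdnf, second window, chr15:7813477-7813776, plus strand: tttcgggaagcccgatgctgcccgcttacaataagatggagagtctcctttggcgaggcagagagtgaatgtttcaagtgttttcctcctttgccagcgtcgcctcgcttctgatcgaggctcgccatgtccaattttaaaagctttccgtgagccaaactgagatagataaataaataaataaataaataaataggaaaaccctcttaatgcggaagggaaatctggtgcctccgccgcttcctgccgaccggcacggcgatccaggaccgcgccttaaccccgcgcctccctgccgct
Bdnf, first window, chr2:109674450-109674749, plus strand: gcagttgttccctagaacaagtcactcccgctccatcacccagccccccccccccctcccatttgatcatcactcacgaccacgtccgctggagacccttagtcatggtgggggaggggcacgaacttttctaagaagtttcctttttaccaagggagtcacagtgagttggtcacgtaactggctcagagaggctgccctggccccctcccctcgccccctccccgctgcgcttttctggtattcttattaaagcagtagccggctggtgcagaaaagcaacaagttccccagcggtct
Bdnf, window at the start of merged exon 4, chr2:109692186-109692485, plus strand: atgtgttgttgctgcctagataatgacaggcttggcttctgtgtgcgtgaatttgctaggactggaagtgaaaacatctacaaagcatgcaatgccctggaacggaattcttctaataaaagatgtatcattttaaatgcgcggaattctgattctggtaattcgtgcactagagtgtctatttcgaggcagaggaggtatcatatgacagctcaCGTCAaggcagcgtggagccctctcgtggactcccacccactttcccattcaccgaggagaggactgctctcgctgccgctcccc

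The first Gdnf window and the Bdnf window at exon 4 each held 1 TGACG match, a motif found in 20.8% of the 32851 mouse windows. TGACG lies within TGACGTCA, so the full element counts as a TGACG match too; no window of either gene held the full element, which 1.79% of all windows did. Another 2 Bdnf windows, not printed, held GC boxes: 2 at chr2:109676782-109677081 and 1 at chr2:109692777-109693076, against 35.7% of all windows with at least 1. The first Gdnf window also held 1 TATAAA (13.6% of all windows), and CACGTG (7.15% of all windows) was in none of the 9. The second Gdnf window held 22 CpG and the first held 11, against a median of 7. The first Bdnf window lies wholly inside the body of Gm45346. A match is a run of letters and not a shown binding site.

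The libraries held 19743299 to 30329847 fragments, of which 4.54% to 5.4% were assigned to genes, and the counts summed to 973382 to 1680974 per library. A floor of 3 counts corresponds to 1.78 to 3.08 CPM, counts scaled to a common library total. Leakage, estimated from Rmrp counts as a percent of those in its own and the opposite Ccdc107 row, was 1.44% and 1.21% in the combination, 1.55% and 1.04% with EZM8266, 1.53% and 1.42% with olaparib and 1.24% and 1.679% with DMSO, so its ranges overlap between all groups. DMSO replicate 1 and olaparib replicate 2 stand apart by 23746 and 22517 counts in the satellite row Gm10800, against 1182 to 4277 elsewhere. The 4 libraries with EZM8266 carry sample numbers 33 to 36 and the 4 without it 41 to 44, so a difference in handling that follows these numbers cannot be told apart from EZM8266. Of the markers of ovarian surface epithelium, 3 have a row on their strand: Gm36026 for Krt8 held 196 to 362 counts, while Gm671 for Krt7 and Gm13415 for Pax8 held 0 to 2. The labelled cell type could not be checked further. Rows of the other markers are set to count the opposite strand, and the share of leaked transcripts in them was not measured.

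The Gdnf row was the more abundant of the members and stood higher in every library with EZM8266 than in any library without it. It held 443 and 463 counts in the combination libraries, 476 and 408 with EZM8266, 279 and 262 with olaparib and 173 and 308 with DMSO. DMSO replicate 2 is the library with the most counts in total, and scaling by the trimmed mean of M values (TMM) brings the replicates of each group together. On that scale Gdnf had 434 and 439 CPM in the combination, 350 and 395 CPM with EZM8266, 200 and 207 CPM with olaparib and 165 and 185 CPM with DMSO. The groups lie in the order combination, EZM8266, olaparib, DMSO, and no library of a group overlaps those of the next. How many tested rows share this full order was not counted. All libraries with EZM8266 lie above all without it for 3.35% of the tested rows. Libraries lie apart in this way, with the first group higher, for 16.2% of all tested rows in EZM8266 over DMSO, 17.1% in the combination over DMSO and 15.9% in the combination over olaparib.

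The mean level of the Gdnf row was 436 ± 3.53 CPM in the combination, 372 ± 31.5 CPM with EZM8266, 203 ± 5.36 CPM with olaparib and 175 ± 14.3 CPM with DMSO (SD, n = 2 each). Per kb of exon these levels are 119, 101, 55.3 and 47.6 CPM in the same order. The steps within each pair, combination over EZM8266 and olaparib over DMSO, are small beside the step between the pairs.

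EZM8266 against DMSO gave the Gdnf row a log2 fold change of 1.09 ± 0.13 (SE), a ratio of 2.12 with a 95% interval of 1.78 to 2.53. Intervals here and below use a normal approximation with this SE, so they are narrow for so few libraries. The combination against DMSO gave 1.32 ± 0.13, a ratio of 2.49 (2.09 to 2.97), and shares its DMSO libraries with the first value. Against olaparib alone, the combination gave 1.10 ± 0.13, a ratio of 2.15 (1.80 to 2.55). These values describe contrasts known in advance, and no call of a member is given for them. Over the whole table, 13 of 6379 rows (0.204%) were called for EZM8266 over DMSO, 14 (0.219%) for the combination over DMSO and 6 (0.0941%) for the combination over olaparib, at an adjusted p under 0.05 in edgeR's quasi-likelihood test.

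No change of the Gdnf row with olaparib passed the test, with or without EZM8266. For olaparib over DMSO the log2 fold change was 0.21 ± 0.13, a ratio of 1.16 (95% interval 0.973 to 1.38), with an adjusted p of 0.999 in edgeR's quasi-likelihood test. For the combination over EZM8266 it was 0.23 ± 0.13, a ratio of 1.17 (0.989 to 1.39), with an adjusted p of 1 in the same edgeR test. In both comparisons the 2 libraries with olaparib lie above the 2 without it, as they do for 15.1% of all tested rows in olaparib over DMSO and for 12.2% in the combination over EZM8266. The interaction, which asks whether the step with EZM8266 differs when olaparib is present, was 0.015 ± 0.18 on the log2 scale (ratio 1.01, 0.790 to 1.29) with an adjusted p of 1 in edgeR. The intervals reach ratios of 1.38, 1.39 and 1.29, so gains of that size are not excluded by these libraries.

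The 3 comparisons that test olaparib called none of the 6379 rows in edgeR. At an unadjusted p under 0.05 they held 117 rows for olaparib over DMSO, 97 for the combination over EZM8266 and 103 for the interaction. Each is a smaller share of the 6379 tested rows than the threshold of 0.05, so none is an excess. DESeq2 called 0, 1 and 0 rows in the same comparisons. Gdnf and Bdnf were not among the rows called by either tool in these 3 comparisons.

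**Figure D2:**
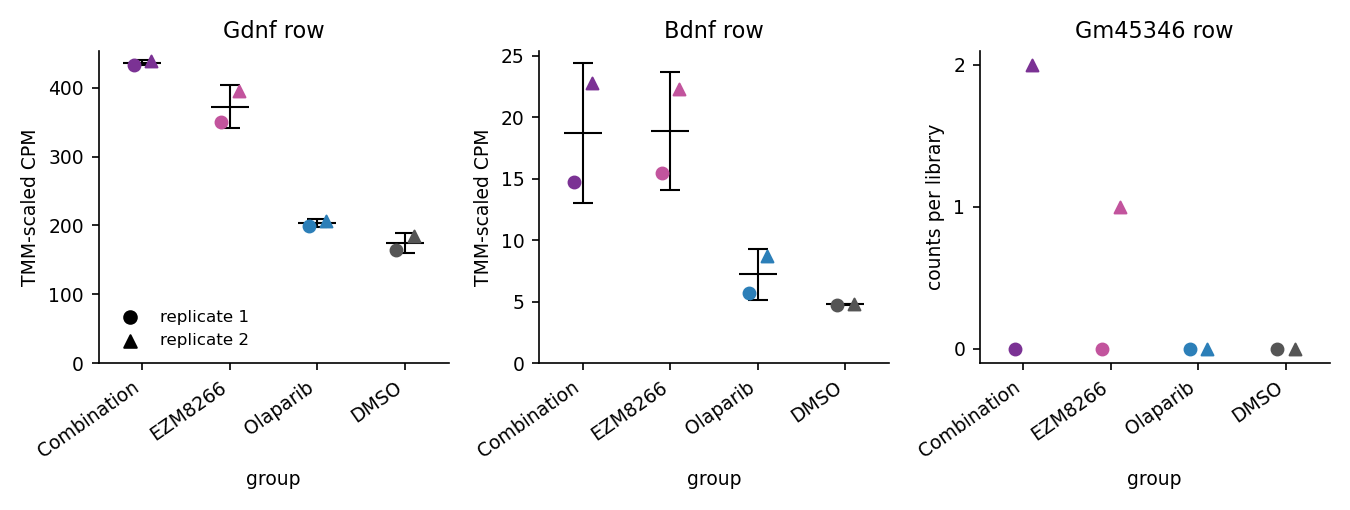
Values of the 3 rows in every library, as TMM-scaled CPM for Gdnf and Bdnf and as counts for Gm45346, by group on the horizontal axis; circles are replicate 1, triangles replicate 2, and bars the mean ± SD of 2 libraries. The combination and EZM8266 libraries of Gdnf lie at 350 to 439 CPM, above those with olaparib or DMSO at 165 to 207 CPM, and Bdnf shows the same split at lower levels.

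The Bdnf row was low in all libraries and also stood higher with EZM8266. It held 15 and 24 counts in the combination, 21 and 23 with EZM8266, 8 and 11 with olaparib and 5 and 8 with DMSO. As TMM-scaled levels these are 14.7 and 22.7 CPM in the combination, 15.4 and 22.2 CPM with EZM8266, 5.72 and 8.70 CPM with olaparib and 4.76 and 4.80 CPM with DMSO. All 4 libraries with EZM8266 lie above all 4 without it, which holds for Gdnf too and for 214 of the 6379 tested rows (3.35%). The combination and EZM8266 libraries overlap. Those with olaparib lie above those with DMSO on the TMM scale, as for 15.1% of all tested rows, while olaparib replicate 1 and DMSO replicate 2 both held 8 counts.

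The mean level of the Bdnf row was 18.7 ± 5.70 CPM in the combination, 18.8 ± 4.81 CPM with EZM8266, 7.21 ± 2.1 CPM with olaparib and 4.78 ± 0.0301 CPM with DMSO (SD, n = 2 each). The small SD with DMSO rests on 5 and 8 counts, and counting error alone is wider. Per kb of exon the levels are 3.01, 3.03, 1.16 and 0.769 CPM in the same order.

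EZM8266 against DMSO gave the Bdnf row a log2 fold change of 1.94 ± 0.49, a ratio of 3.83 (95% interval 1.97 to 7.48). The combination gave 1.95 ± 0.50 against DMSO, a ratio of 3.86 (1.96 to 7.58), and 1.38 ± 0.47 against olaparib, a ratio of 2.60 (1.38 to 4.90). The fold is larger than that of Gdnf and its error is wider, and the intervals of both rows overlap in each comparison. The difference between the rows was not tested. The spread within groups was 0.36 for Bdnf and 0.087 for Gdnf as an SD of log2 values.

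No change of the Bdnf row with olaparib passed the test either. Olaparib over DMSO was 0.57 ± 0.55 on the log2 scale, a ratio of 1.49 (0.703 to 3.14), with an adjusted p of 0.999 in edgeR. The combination over EZM8266 was 0.0083 ± 0.42, a ratio of 1.01 (0.571 to 1.77), with an adjusted p of 1 in edgeR. The interaction was -0.56 ± 0.69 with an adjusted p of 1 in edgeR, and the interval of its ratio runs from 0.265 to 1.73. At 5 to 24 counts per library a change in either direction within these intervals was not detectable.

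**Figure D3:**
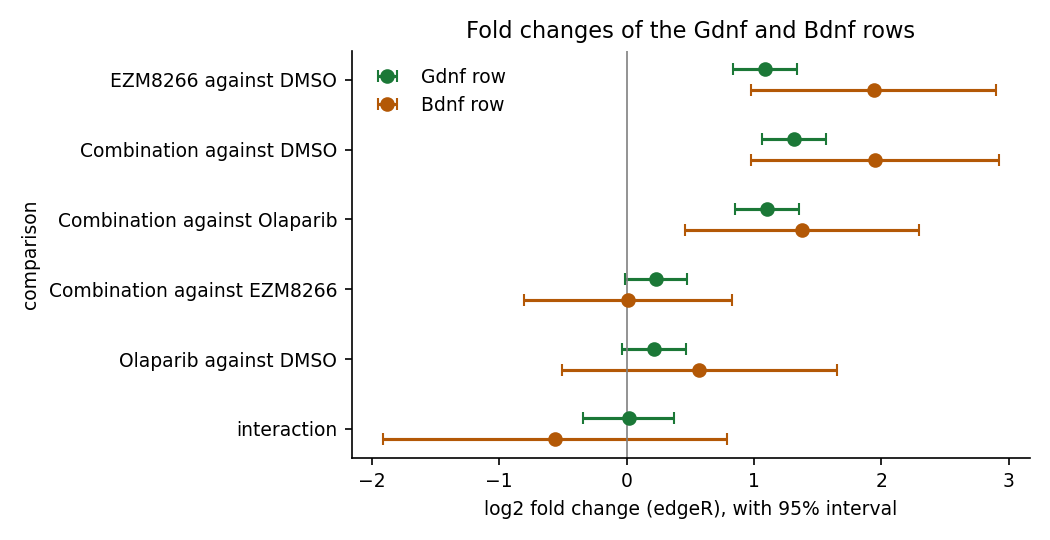
Log2 fold changes of the Gdnf and Bdnf rows in 6 comparisons (horizontal axis). Points are the values fitted by edgeR, and bars are 95% intervals from the SE by a normal approximation. The 3 comparisons that differ by EZM8266 lie above 0 for both rows, and the intervals of the other 3 cross 0.

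Gm45346 held 0 counts in 6 libraries, 2 counts in combination replicate 2 and 1 count in EZM8266 replicate 2. With strand setting and kit as above, this row is set to count the strand of Bdnf. Whether any of these fragments are leaked Gm45346 RNA was not tested. Every value lies under the floor of 3 counts, so no fold change is given, and RNA on the Bdnf strand in the 896 shared bases was not detectable as different between groups at this depth. Fragments of Bdnf transcripts that start further downstream do not reach Gm45346 and would not be counted there. Gm20638, a noncoding gene on the plus strand within the body of Gm45346, lies 606 bases before Bdnf and held 0 to 1 counts.

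The surroundings of both genes held few counts. Around Gdnf, the pseudogenes Gm19227 (30799 bases before it) and Rpl19-ps6 (137499 bases beyond it) held 0 to 2 and 2 to 6 counts. Around Bdnf, the pseudogene Gm13932 (64917 bases beyond it, minus strand) held 0 to 1 counts, and Lin7c (163845 bases beyond it), which encodes a cell polarity scaffold, held 4 to 13. None of these rows passed the filter on low counts. The Gdnf row, with 173 to 476 counts, therefore stands between rows of single-digit counts.

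Gdnf is an abundant row for one without a gene on the other strand. Among the 1037 tested rows that have no opposite-strand exon or gene body, and do not lie within 5000 bases downstream of such a gene, Gdnf had rank 5 by mean CPM. Per kb of exon it had 80.7 CPM and rank 27, against a median of 2.66 CPM per kb. Among the 942 protein-coding rows of that class its ranks were 4 and 10. Per kb the Actb row, for cytoskeletal actin, stood above it at 127 CPM, and the Rpl4 row, for a ribosomal protein, stood below it at 71.1 CPM. Bdnf had 1.99 CPM per kb and rank 3148 of the 3554 tested rows with an opposite-strand exon, whose median was 16.4 CPM per kb.

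Whether the Gdnf counts are leaked Gdnf transcripts or an unannotated RNA of the minus strand was not tested. Nor was it tested how many of the Bdnf counts are leaked Bdnf transcripts. Without DMSO replicate 1 and olaparib replicate 2, the libraries rich in Gm10800, the log2 fold change of EZM8266 over DMSO was 1.01 for Gdnf and 1.94 for Bdnf. With the leakage share as a covariate, the log2 fold change of EZM8266 over DMSO was 1.07 for Gdnf and 1.71 for Bdnf.

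**Figure D4:**
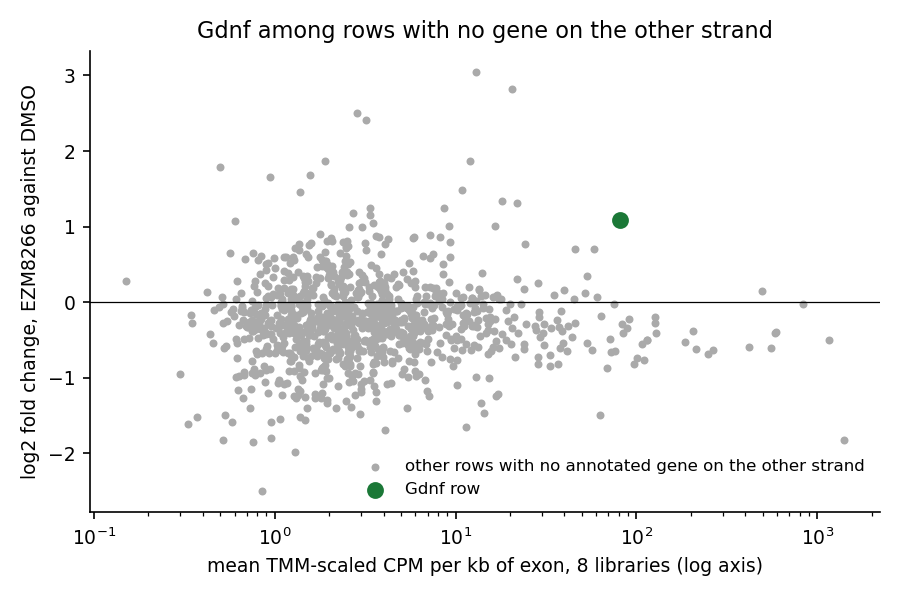
Log2 fold change of EZM8266 against DMSO (vertical axis) against mean level in CPM per kb of exon over 8 libraries (horizontal log axis) for the 1037 tested rows without an opposite gene. Gdnf, in green, lies at 80.7 CPM per kb and a log2 fold change of 1.09.

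Of the 5 rows whose profile over the 8 libraries was most like that of Gdnf, 4 overlap an exon annotated opposite to them, as do 55.7% of all tested rows. Likeness was the root mean square difference of row-centred log2(CPM + 0.5) among 6366 rows with a mean of at least 5 CPM, with a median of 0.65 against Gdnf. The nearest were Gm20528, opposite the Ugt1a glucuronosyltransferase genes (0.17), Uvrag, an autophagy gene, opposite Gm45187 (0.18), Cyren, a regulator of DNA end joining, opposite Tmem140 (0.19), Gm30489, opposite F13a1, the A subunit of clotting factor XIII (0.19), and 4930562C15Rik, with no gene opposite it (0.20). Cyren, the most abundant of these, averaged 224 ± 5.19 CPM in the combination, 218 ± 37.3 CPM with EZM8266, 143 ± 14.9 CPM with olaparib and 116 ± 4.37 CPM with DMSO (SD, n = 2 each). Bdnf was number 80 in likeness to Gdnf, at 0.35.

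Rows most like Bdnf were Gm30302, opposite Gm47977 (0.22), Gm42686, opposite the drug efflux pump gene Abcb1a (0.26), and Gm36099, opposite the serpin gene Serpinb9b (0.29), against a median of 0.91. Gm36099 averaged 350 ± 7.42 CPM in the combination, 390 ± 54.4 CPM with EZM8266, 128 ± 15.4 CPM with olaparib and 98.5 ± 12.8 CPM with DMSO (SD, n = 2 each). Gdnf was number 12 in likeness to Bdnf. The likeness covers the split by EZM8266 for which the members were chosen, and it is a description over 8 libraries, with no test.

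**Figure D5:**
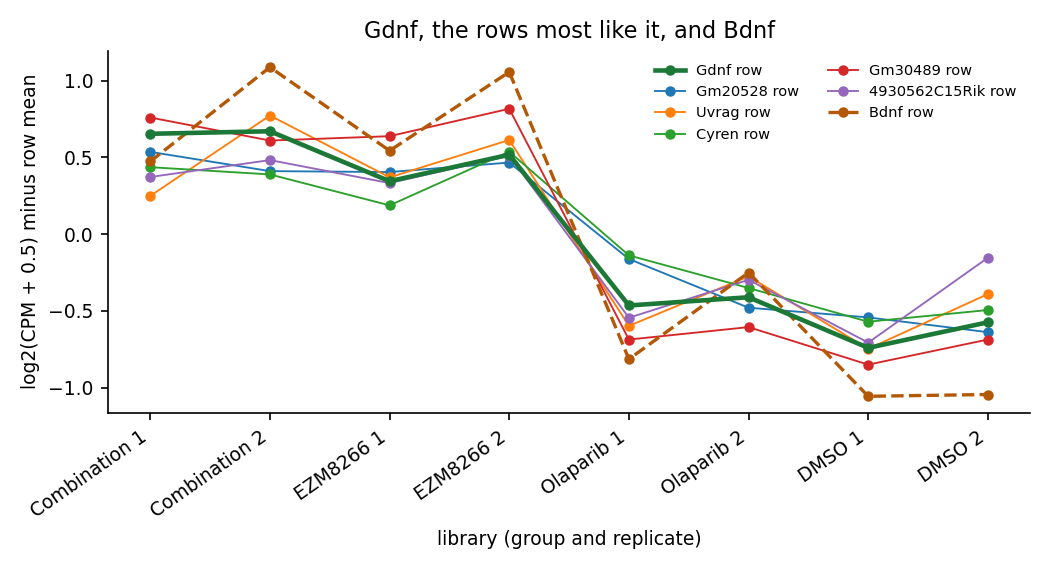
Profiles of Gdnf, the 5 rows most like it and Bdnf over the 8 libraries, as log2(CPM + 0.5) minus the mean of the row, with libraries ordered by group on the horizontal axis. All 7 rows lie above their mean in the libraries with EZM8266 and below it in those without.

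The rest of the GDNF family gave little signal. Of 13 rows for its ligands and receptors 2 were tested, Gdnf and Ncam1, and 8 held at most 3 counts in every library. The rows of Ret, the signalling receptor, and Gfra1, the co-receptor of GDNF, held 0 to 4 and 0 to 2 counts. Among the sister ligands, Nrtn held 0 to 1, Artn 0 to 3 and Pspn 1 to 11 counts. These rows too are set to count the strand opposite to the gene, so they do not measure the receptors.

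Ncam1, the alternative receptor, has tested rows on both strands. Its opposite-strand row Gm11149 averaged 1425 CPM in the combination, 1443 CPM with EZM8266, 1939 CPM with olaparib and 1909 CPM with DMSO. The log2 fold change of EZM8266 over DMSO was -0.40 ± 0.11, with an adjusted p of 0.425 in edgeR, and that of the combination over DMSO -0.42 ± 0.11, with an adjusted p of 0.334. The Ncam1 row itself averaged 39.4 CPM in the combination, 27.7 CPM with EZM8266, 53.3 CPM with olaparib and 61.9 CPM with DMSO, and was not called (adjusted p 0.303 for EZM8266 over DMSO in edgeR). The Gm26716 row on the strand of Sdc3, a heparan sulfate proteoglycan, held 3 to 15 counts and was not called.

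Of 21 rows for neurotrophins, their receptors and processing enzymes, 4 were tested and 16 held at most 3 counts. The rows of the receptors Ntrk2, Ntrk3 and Ngfr held at most 2 counts. The own row of Sort1, which encodes the pro-neurotrophin receptor sortilin, averaged 24.2 CPM in the combination, 24.8 CPM with EZM8266, 25.0 CPM with olaparib and 20.3 CPM with DMSO. Gm12523, the row on the strand of Sort1, averaged 76.3 CPM in the combination, 68.4 CPM with EZM8266, 72.3 CPM with olaparib and 71.7 CPM with DMSO. Neither the Sort1 row nor those of Furin and Pcsk7, which encode proprotein-cutting enzymes, passed the test in a single one of the 6 comparisons. The median log2 fold change of the 4 tested own rows was 0.06 for EZM8266 over DMSO, against -0.02 over all tested rows. These 4 include Bdnf itself (1.94), which was chosen with this contrast known. Sort1 had 0.22, Furin -0.44 and Pcsk7 -0.10. On the opposite strand 3 of 7 rows were tested, with a median of -0.23 and no call. Over all tested rows, 0.204% were called for EZM8266 over DMSO and 0.219% for the combination over DMSO. A list of a few rows without a call, here and in the lists below, is therefore the usual outcome.

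Adaptors that carry signals from RET and TRK receptors showed no called row, with 6 of 21 own rows and all 6 opposite-strand rows tested. Their medians for EZM8266 over DMSO were -0.09 and -0.05. Genes that respond to ERK, the kinase these receptors switch on, also had none, with 6 of 19 own rows tested (median 0.06) and 3 of 3 opposite-strand rows (median -0.11). The most abundant of these, Gm28592 on the strand of Phlda1, averaged 485 CPM in the combination, 456 CPM with EZM8266, 496 CPM with olaparib and 446 CPM with DMSO.

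Other neurotrophic and growth factors had 5 of 15 own rows and 5 of 6 opposite-strand rows tested, none called, with median log2 fold changes of 0.39 and 0.05 for EZM8266 over DMSO. Manf, an endoplasmic reticulum protein with neurotrophic activity, has the tested rows 4930524O07Rik and Dcaf1 on its strand. The 4930524O07Rik row averaged 634 CPM in the combination, 600 CPM with EZM8266, 587 CPM with olaparib and 617 CPM with DMSO. Dcaf1 averaged 23.1, 17.9, 21.5 and 21.4 CPM in the same order. The Nudt6 row on the strand of Fgf2, a fibroblast growth factor, averaged 14.4 CPM in the combination, 12.2 CPM with EZM8266, 9.18 CPM with olaparib and 4.48 CPM with DMSO. Its log2 fold change for EZM8266 over DMSO was 1.43 ± 0.54, with an adjusted p of 0.797 in edgeR. The 6330403L08Rik row on the strand of Pdgfa, a platelet-derived growth factor chain, had 0.57 ± 0.22 with an adjusted p of 0.797 in edgeR.

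Repressors and activators of neuronal genes had 10 of 18 own rows and 3 of 4 opposite-strand rows tested, none called. The own row of Ehmt2, a target of EZM8266, averaged 13.1 CPM in the combination, 6.33 CPM with EZM8266, 12 CPM with olaparib and 16.6 CPM with DMSO, at 7 to 30 counts. Its adjusted p for EZM8266 over DMSO was 0.742 in edgeR. The own row of Rest, the repressor of neuronal genes, held 4 to 27 counts with a log2 fold change of -0.65 ± 0.54 for EZM8266 over DMSO. Ehmt2 and Rest have no annotated gene opposite them, so their rows are not given as transcript levels. The Gm26625 row on the strand of Ezh2, a histone H3 lysine 27 methyltransferase, averaged 372 CPM in the combination, 418 CPM with EZM8266, 393 CPM with olaparib and 351 CPM with DMSO.

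Markers of neurons and glia, the cell types best known for these factors, were read only through the genes' own rows. Those rows are set to count the opposite strand, so the marker transcripts were not measured. Of 9 such rows 1 was tested, Syn1, for a synaptic vesicle protein, with 3 to 17 counts. Mbp, for a myelin protein, held 3 to 14 counts, and 5 rows held at most 3. Their summed counts were 9 to 20 in the combination, 10 to 28 with EZM8266, 19 to 22 with olaparib and 20 to 26 with DMSO. Of 6 fibroblast marker rows 1 was tested, the collagen row Col1a1, with 42 to 235 counts and no call, and of 5 endothelial marker rows none was tested. Among 12 markers of ovarian surface epithelium and mesothelium, 5 own rows were tested. Of these, 1 was called for EZM8266 over DMSO, against 13 of all 6379 tested rows (0.204%). That row, Pax8, which encodes a transcription factor of the reproductive tract epithelium, averaged 22.1 CPM in the combination, 36.7 CPM with EZM8266, 4.99 CPM with olaparib and 2.93 CPM with DMSO. Its log2 fold change was 3.58 ± 0.52 for EZM8266 over DMSO, with an adjusted p of 0.011 in edgeR, and it was not called for the combination over DMSO (2.87 ± 0.56, adjusted p 0.0703). The other tested own rows of this list had negative log2 fold changes for EZM8266 over DMSO and were not called. The values were -0.61 for Krt8, -0.32 for Krt18, -0.41 for Krt19 and -0.48 for Wt1. Like the Bdnf row, the Pax8 row is set to read the strand opposite to its gene, and its part in the Gdnf result was not tested.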

How the data were processed

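The deposited values are raw fragment counts per gene in 8 libraries. Per the submitters' processing notes, HISAT2 2.1.0, Subread 1.6.2 and mm10 belong to the pipeline. Per the file headers, featureCounts 1.6.2 counted read pairs over exons with strand setting 1 and let a fragment count for every gene it overlapped. Symbols came from GENCODE M21, which named 54079 of 54146 rows and gave equal merged exon lengths for all 54146.

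Tests used edgeR 4.0.16 (quasi-likelihood F test) in R 4.3.3 on the counts as deposited, with TMM scaling on unfiltered totals and filterByExpr at 10 counts, 15 in total. A single fit of 4 group means took all 8 libraries, and p-values were adjusted by Benjamini-Hochberg over all tested rows. Counts per library, 973382 to 1680974 in sum, limit the precision, and floors of 3 counts cover counting error only. A row was put in the class with no opposite annotation where under 50 bases of opposite-strand exon overlapped it, no opposite gene body held it and no such gene ended within 5000 bases upstream. DESeq2 1.42.0 and the other settings are given in the closing section. The script was tested on simulated counts.

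The members, gene lists and rules were chosen with earlier results of these data known. The rule for named rows takes the members, up to 4 tested rows a list by mean CPM plus any called, the 5 rows most like Gdnf and the 3 most like Bdnf; rows shown for comparison of levels, neighbouring genes and rows of named receptors were added after their values were seen. Promoter windows are from RefSeq on GRCm38.p6. Protein and genome sequence was not used here.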

Additional observations from a re-analysis of the deposited data

How the results depend on the processing

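The Gdnf row kept its direction in all 19 alternatives for each of the 3 comparisons that differ by EZM8266. Its log2 fold change for EZM8266 over DMSO was 1.18 with library totals and no scaling factor and 1.00 to 1.18 with 1 library left out. For the combination over DMSO it was 1.25 to 1.41, and for the combination over olaparib 1.08 to 1.11, with 1 library left out. Bdnf also kept its direction in these comparisons, at 1.67 to 2.17 for EZM8266 over DMSO, 1.61 to 2.23 for the combination over DMSO and 1.03 to 1.679 for the combination over olaparib with 1 library left out. Its tested values, none of them called, ranged more widely in the same way, over 0.27 to 0.84 for olaparib over DMSO and -0.92 to -0.26 for the interaction. The 2 values nearest 0 changed sign with no call. The Gdnf interaction was -0.0042 with library totals, -0.040 in DESeq2, -0.021 with no low-count filter and -0.0080 with a filter of 1 CPM in 4 libraries, and -0.078 to 0.11 with 1 library left out. Bdnf for the combination over EZM8266 was -0.055, -0.023, -0.017 and -0.0059 in the same order, -0.013 with the replicate block and -0.011 with it crossed, and -0.35 to 0.29 with 1 library left out.

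Counts of called rows moved more, in the order EZM8266 over DMSO, combination over DMSO, olaparib over DMSO, combination over EZM8266, combination over olaparib and interaction, from 13, 14, 0, 0, 6 and 0. With no low-count filter they were 42, 45, 8, 12, 42 and 7. With leakage as a covariate they were 46, 59, 0, 1, 40 and 1. With library totals, 22 rows were called for the combination over DMSO, 1 for the combination over EZM8266 and 1 for the interaction. DESeq2 called 1 row for the combination over EZM8266, and the 1 CPM filter called 1 there and 1 for the interaction. With only the groups compared the counts were 3 for EZM8266 over DMSO and 10 for the combination over olaparib. Without DMSO replicate 1 and olaparib replicate 2 they were 3, 5 and 1 for the 3 treatments over DMSO. With 1 library left out they ranged over 5 to 24, 6 to 19, 0 to 1, 0 to 3, 4 to 14 and 0 to 1. The causes were not tested.

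The replicate numbers are shared by the groups, but no label says that they pair libraries, and the correlation of deviations between same-numbered libraries was -0.31 to 0.29. The replicate block called 10, 15, 0, 0, 5 and 0 rows. With the DMSO numbers crossed, a setting chosen after seeing the data, the counts were 84, 73, 1, 3, 47 and 3. Library sizes from all fragments were also added after seeing the data. The Gm45346 row has no value in these settings, since all its counts lie under the floor, and the interaction was not fitted with only the groups compared.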
